A study of Mus musculus with 15 samples.

Results

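The collagen gene family was followed in lung metastases of mice fed 4 levels of dietary methionine, an essential sulfur amino acid. Members were all genes whose mouse symbol has the form Col, a number, a and a number. This gave 44 genes among the 37620 gene identifiers measured, and all 44 symbols matched an identifier. They comprised 11 fibrillar genes, 6 basement membrane genes, 9 fibril-associated genes with interrupted triple helices (FACIT) and 18 others. Metastases came from B16-F10.1, a pigmented melanoma line of C57BL/6 origin. The host mice were male, of strain C57BL/6J and 8 weeks old, and 100000 cells were given into the tail vein. Diets began after 21 days and lasted 2 weeks, so all groups carried the same tumour line and injection. The groups were methionine deficient at 0% (n = 3 libraries), restricted to 25% (n = 3), adequate (n = 3) and supplemented to 300% (n = 6), the last named in the sample labels but not in the study's design text. Each library is a bulk sample of metastatic tissue and can hold tumour, stroma and adjacent lung. The labels do not tie libraries to individual mice, and the p-values below therefore reflect the spread between libraries, which may be technical in part.

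Collagens are secreted or membrane-bound proteins whose chains wind into a triple helix. Fibrillar collagens, of which types I and III are the main ones in lung interstitium, form the cables that bear load. FACIT collagens sit on the surface of those cables. Type IV collagens form the sheet of the basement membrane under endothelium and epithelium, where the Col4a1 and Col4a2 chains are widespread and the Col4a3, Col4a4 and Col4a5 chains serve alveolar and glomerular membranes. Type VI collagen forms beaded microfibrils, and types XV and XVIII are proteoglycans of the basement membrane zone. In tumours most fibrillar collagen is made by fibroblasts, and much of type IV by endothelial cells and pericytes.

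Libraries held 13107679 to 29994264 expected counts. 3 libraries stood apart from the rest. In adequate 1, the 20 most abundant identifiers took 49.4% of counts, where the other libraries had 21.9 to 34.96%, and its TMM scaling factor was 0.690. Deficient 3 held far more lung RNA, with summed alveolar type 2 markers at 8304 CPM (read counts scaled to library size), against 134 to 2357 CPM elsewhere. Supplemented 5 held skeletal muscle markers at 1469 CPM, against 1.41 to 9.67 CPM elsewhere. Of 8 melanocyte and melanoma markers, all were detected, and their sum ran from 14390.0 CPM in deficient 3 to 28307 CPM in restricted 1. In such bulk tissue, fewer cells of a type and less RNA per cell cannot be told apart. Levels across libraries are given below as CPM scaled by the trimmed mean of M-values (TMM), and levels between genes as TPM (transcript abundance adjusted for transcript length).

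Per length, Col4a1 was the most abundant collagen, with a median of 35.2 TPM over the 15 libraries. It was followed by Col1a2 at 19.3 TPM, Col4a2 at 17.6 TPM, Col1a1 at 16.9 TPM and Col3a1 at 16.3 TPM. Medians of neighbours among the last 4 lay closer together than their spread over libraries. These 5 genes made up between 44.9 and 71.2% of the summed collagen TPM of a library. Col4a1 led the family in 13 libraries, and Col1a2 led in adequate 1 and supplemented 5. Next came Col18a1 at 14.1 TPM, Col16a1 at 9.79 TPM, Col5a1 at 6.85 TPM, Col6a1 at 6.39 TPM and Col15a1 at 5.70 TPM. In all, 17 genes had a median of 1 TPM or more, and the lowest of those were Col12a1 at 1.86 TPM and Col14a1 at 1.02 TPM. The ratio of summed fibrillar to summed basement membrane TPM was 6.70 in supplemented 5 and 0.83 to 2.09 in the other 14 libraries.

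**Figure D1:**
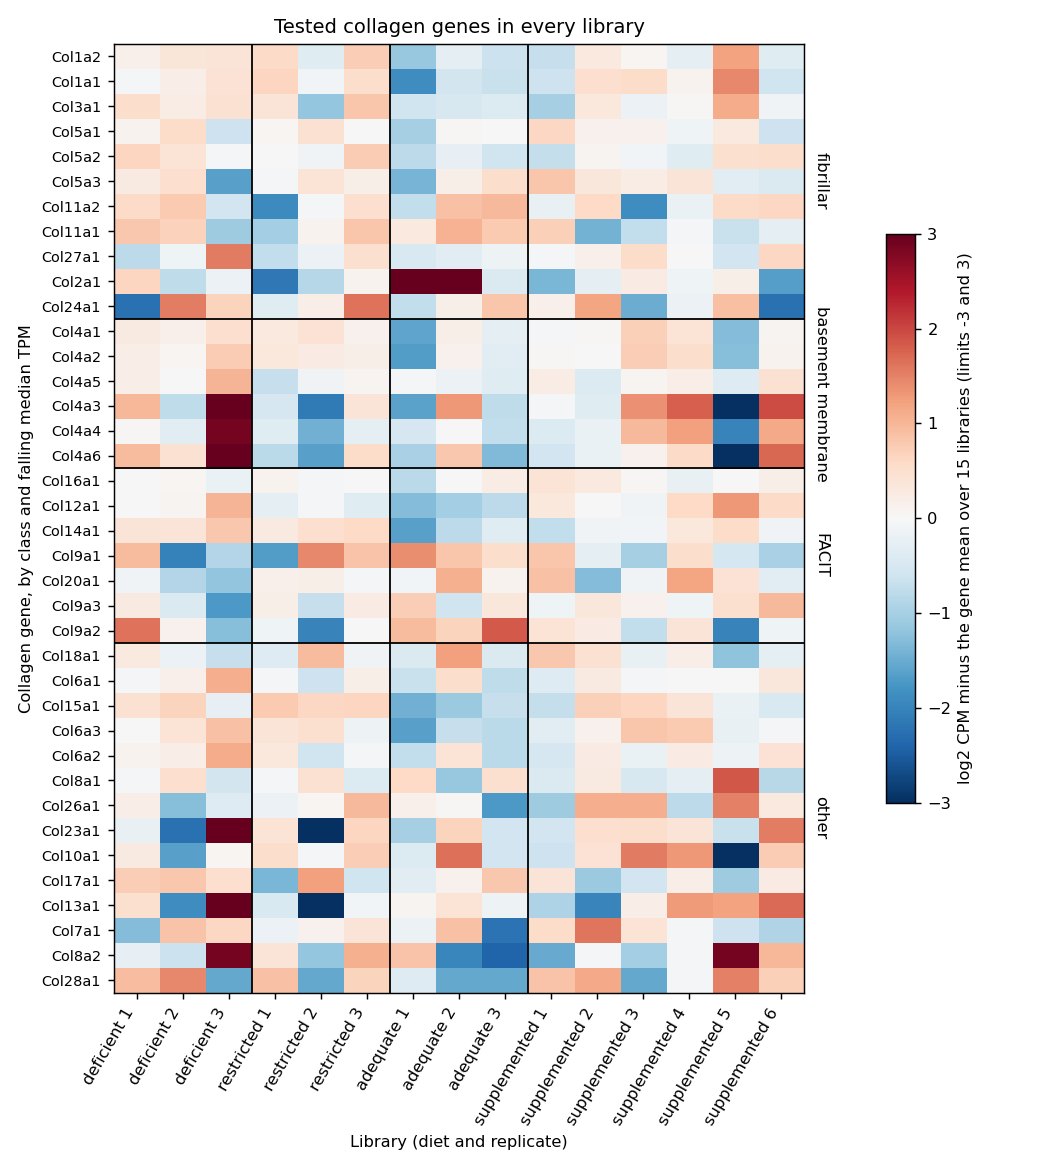
Log2 CPM of the 38 collagen genes that passed the low-count filter (rows, by class and falling median TPM) in each of the 15 libraries (columns, by diet), minus the gene's mean over libraries. Blue in the adequate columns marks lower levels of Col1a1, Col12a1, Col14a1, Col15a1 and Col6a3, and dark red marks Col2a1 in adequate 1 and 2 and the lung chains Col4a3 and Col4a4 in deficient 3.

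After a filter on low counts, 38 members were tested. The other 6 had 8 to 48 counts summed over all libraries: Col6a6 had 8, Col6a4 had 16, Col25a1 had 25, Col6a5 had 27, Col19a1 had 39 and Col22a1 had 48. Each was at 0 in 6 to 13 of the 15 libraries, so no level is given for them. None of the 38 passed an adjusted p of 0.05 in edgeR's quasi-likelihood test in any of 6 pairwise comparisons or in the test of any difference among the 4 diets. Across all 16001 genes that test called 0.00625% between deficient and adequate and again over the 4 diets, and 0 in the other comparisons. DESeq2, run as an alternative, called 5 members between deficient and adequate libraries where it called 3.66% of all genes. It called 4 between restricted and adequate, against 0.794% of all genes, and 4 between supplemented and adequate, against 0.637%. The genes it called were drawn from Col12a1, Col6a3, Col14a1, Col15a1 and Col2a1. Over the 4 diets DESeq2 called 5 members, against 1.61% of all genes. Limma-voom called none of the members. The share of all genes that limma-voom called is not given, so its result cannot be read as particular to collagens.

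Without adjustment, 11 of 38 members had p under 0.05 between deficient and adequate libraries, where 15.1% of all genes did. Of these, 10 were higher in deficient libraries, against 9.29% of all genes. Between restricted and adequate libraries 8 members had p under 0.05, against 9.17% of all genes, and 7 of them were higher in restricted libraries, against 4.87%. Between supplemented and adequate libraries there were 7, against 9.77% of all genes, with 6 higher in supplemented libraries, against 4.85%. These 3 comparisons share the same adequate libraries, of which 1 stood apart, and so are not independent of each other. The median log2 fold change of the 38 members was 0.68 in deficient against adequate, where that of all genes was 0.04. It was 0.16 in restricted against adequate (all genes 0.00) and 0.48 in supplemented against adequate (all genes 0.03). By class, the medians in deficient against adequate were 0.46 for fibrillar, 1.41 for basement membrane, -0.69 for FACIT and 0.74 for other genes. In restricted against adequate they were 0.43, -0.11, -0.27 and 0.14, and in supplemented against adequate 0.36, 0.57, 0.07 and 0.54, in the same order. With adequate 1, supplemented 5 and deficient 3 left out together, the family medians were 0.19, 0.02 and 0.33, and the counts at p under 0.05 were 6, 9 and 6, where 12.7%, 15.5% and 14.9% of all genes had p under 0.05. Without deficient 3 alone, the class medians in deficient against adequate were 0.44 for fibrillar, 0.43 for basement membrane, -0.19 for FACIT and 0.14 for other genes. With all 3 left out they were 0.068, 0.22, -0.10 and 0.24. For restricted against adequate they were then 0.15, -0.14, -0.028 and 0.022, and for supplemented against adequate 0.048, 0.44, 0.024 and 0.46.

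Among FACIT genes, Col12a1, whose product coats collagen I fibrils in tissue under tension, separated the adequate libraries from every other diet. It had 33.2, 35.8 and 68.6 CPM in deficient libraries, 27.9, 33.0 and 26.3 CPM in restricted libraries and 13.6, 16.5 and 19.5 CPM in adequate libraries. In supplemented libraries it ran from 31.0 to 83.2 CPM with a median of 46.1 CPM. All 12 libraries of the other 3 diets lay above all 3 adequate libraries. The share of all genes with such a joint separation is not given, and the members were chosen with earlier results of these data known. Col12a1 averaged 45.9 ± 19.7 CPM in deficient libraries and 16.5 ± 2.93 CPM in adequate libraries (SD, n = 3 each), and the log2 fold change was 1.47 (SE 0.344, edgeR adjusted p = 0.149). The log2 fold change was 0.81 (SE 0.340, edgeR adjusted p = 0.490) in restricted against adequate and 1.55 (SE 0.314, edgeR adjusted p = 0.216) in supplemented against adequate. DESeq2 gave adjusted p = 0.00596 for deficient and 0.00164 for supplemented libraries. It was also the only member with p under 0.05 between restricted and supplemented libraries, with means of 29.1 ± 3.49 CPM (SD, n = 3) and 48.5 ± 18.9 CPM (SD, n = 6). That log2 fold change was -0.74 (SE 0.300, edgeR adjusted p = 1), and 2.18% of all genes had p under 0.05 there.

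Col14a1, a FACIT chain of dense connective tissue, was lower than Col12a1 per length but had a like pattern. It had 12.5, 12.5 and 17.02 CPM in deficient libraries, 11.5, 13.6 and 14.5 CPM in restricted libraries and 3.02, 5.52 and 7.46 CPM in adequate libraries. In supplemented libraries it ran from 5.73 to 14.2 CPM with a median of 8.99 CPM, which overlapped the adequate range. The log2 fold change against adequate was 1.39 (SE 0.349, edgeR adjusted p = 0.149) in deficient, 1.3 (SE 0.349, edgeR adjusted p = 0.289) in restricted and 0.87 (SE 0.309, edgeR adjusted p = 0.407) in supplemented libraries. Without adequate 1 the value for supplemented libraries was 0.58. DESeq2 called Col14a1 against adequate in deficient and restricted libraries only. Compared directly with supplemented libraries, the log2 fold change was 0.52 (SE 0.290, edgeR adjusted p = 0.885) in deficient and 0.43 (SE 0.291) in restricted libraries. Neither had p under 0.05 in the edgeR test.

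The other 5 tested FACIT genes did not follow these. Col16a1, the most abundant FACIT gene per length, averaged 54.9 ± 4.79 CPM in deficient, 57.5 ± 3.22 CPM in restricted, 51.8 ± 17.5 CPM in adequate (SD, n = 3 each) and 61.9 ± 9.54 CPM in supplemented libraries (SD, n = 6). Those ranges overlapped in every comparison. Col20a1 had 4.38, 2.51 and 2.03 CPM in deficient libraries and 4.47, 10.03 and 5.09 CPM in adequate libraries, without overlap, but did not reach p under 0.05. Its deficient libraries also lay below all restricted libraries. The share of all genes with such separations is not given. Col9a1, a chain of cartilage type IX collagen, had 0.903 to 7.80 CPM in deficient and 5.73 to 10.6 CPM in adequate libraries. The median of the 7 tested FACIT genes in deficient against adequate, given above, was thus opposite in sign to Col12a1 and Col14a1.

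**Figure D2:**
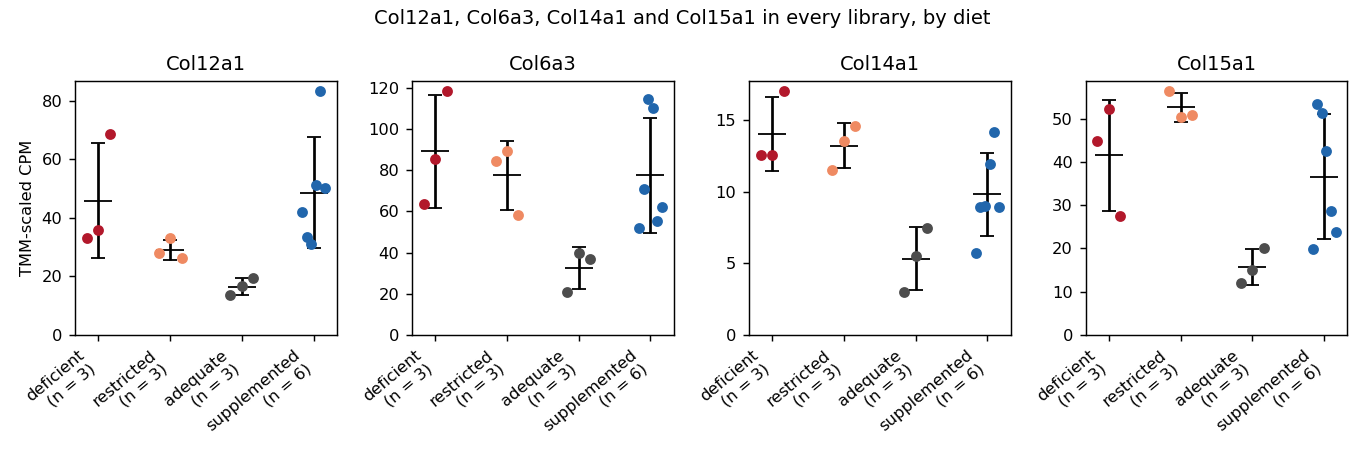
TMM-scaled CPM (vertical axes, from 0) of Col12a1, Col6a3, Col14a1 and Col15a1 in every library, by diet. Points are libraries, horizontal bars are means and error bars are SD (n = 3, 3, 3 and 6). The 3 adequate libraries lie lowest for Col12a1 and Col6a3, and for Col14a1 and Col15a1 only supplemented libraries reach into their range.

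Type VI collagen is built from an alpha 1, an alpha 2 and an alpha 3 chain. Its alpha 3 chain gene, Col6a3, had 63.7, 85.4 and 118 CPM in deficient libraries, 84.4, 89.5 and 58.4 CPM in restricted libraries and 20.9, 39.9 and 36.6 CPM in adequate libraries. Supplemented libraries ran from 51.9 to 115 CPM with a median of 66.5 CPM. Each of the 12 libraries outside the adequate group lay above all 3 adequate libraries, and here too the share of all genes is not given. The log2 fold change against adequate was 1.45 (SE 0.346, edgeR adjusted p = 0.149) in deficient, 1.25 (SE 0.344, edgeR adjusted p = 0.313) in restricted and 1.25 (SE 0.311, edgeR adjusted p = 0.288) in supplemented libraries. DESeq2 gave adjusted p = 0.00587, 0.0478 and 0.0145 for the same comparisons.

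The partner chains did not separate in this way. Col6a1 had 47.5, 53.8 and 103 CPM in deficient libraries and 30.7, 69.8 and 28.6 CPM in adequate libraries, with a log2 fold change of 0.66 (SE 0.350). Col6a2 averaged 45.1 ± 19.04 CPM in deficient and 25.5 ± 13.1 CPM in adequate libraries (SD, n = 3 each), and the log2 fold change was 0.82 (SE 0.364, edgeR adjusted p = 0.301). Col6a1 and Col6a2 had log2 fold changes of 0.05 and 0.20 in restricted against adequate libraries, beside the 1.25 of Col6a3. Adequate 2 was the library in which they parted most plainly, with Col6a1 at 69.8 CPM, the second highest of all libraries, and Col6a3 at 39.9 CPM, below every library outside the adequate group. Whether the chains differed from each other in their response to diet was not tested.

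Col15a1 encodes a proteoglycan collagen that links basement membranes of vessels and muscle to the fibrils around them. It had 44.8, 52.3 and 27.4 CPM in deficient libraries, 56.4, 50.4 and 50.9 CPM in restricted libraries and 11.9, 15.04 and 20.1 CPM in adequate libraries. Supplemented libraries ran from 19.8 to 53.4 CPM with a median of 35.7 CPM, and 1 of them fell inside the adequate range. Restricted libraries averaged 52.6 ± 3.35 CPM and adequate libraries 15.7 ± 4.16 CPM (SD, n = 3 each), and the log2 fold change was 1.74 (SE 0.359, edgeR adjusted p = 0.179). The log2 fold change was 1.40 (SE 0.356, edgeR adjusted p = 0.149) in deficient against adequate and 1.22 (SE 0.321, edgeR adjusted p = 0.293) in supplemented against adequate. DESeq2 gave adjusted p = 0.00987, 0.00153 and 0.0257 for deficient, restricted and supplemented against adequate. Its relative Col18a1, the source of the angiogenesis inhibitor endostatin, showed no such pattern. Col18a1 averaged 114 ± 38.5 CPM in deficient, 151 ± 79.0 CPM in restricted, 160.0 ± 116 CPM in adequate (SD, n = 3 each) and 133 ± 57.8 CPM in supplemented libraries (SD, n = 6). Its log2 fold changes against adequate were -0.48 (SE 0.512), -0.08 (SE 0.511) and -0.27 (SE 0.438).

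Among fibrillar genes, Col1a1, Col1a2, Col3a1, Col5a1 and Col5a2 each had a lower mean CPM in the adequate group than in any other diet, though no difference passed the test. Col1a1, the alpha 1 chain of type I collagen, had 160.5, 189 and 222 CPM in deficient libraries, 256, 157 and 239 CPM in restricted libraries and 44.9, 112 and 104 CPM in adequate libraries. Supplemented libraries ran from 106 to 447 CPM with a median of 206 CPM, and the highest was supplemented 5. Deficient and restricted libraries did not overlap the adequate group, and supplemented libraries did. The log2 fold change against adequate was 1.13 (SE 0.462, edgeR adjusted p = 0.268) in deficient, 1.32 (SE 0.464, edgeR adjusted p = 0.420) in restricted and 1.34 (SE 0.421, edgeR adjusted p = 0.355) in supplemented libraries. Without adequate 1, supplemented 5 and deficient 3 these were 0.69, 0.99 and 0.68.

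Col1a2, the alpha 2 chain of type I collagen, had 189, 219 and 222 CPM in deficient libraries and 77.1, 139.6 and 109 CPM in adequate libraries. Its log2 fold changes against adequate were 0.95 (SE 0.411) in deficient, 1.03 (SE 0.411) in restricted and 0.82 (SE 0.366) in supplemented libraries, and the last was 0.48 without supplemented 5. Col3a1, the type III chain of elastic tissues, had 256, 209 and 246 CPM in deficient libraries and 117, 129 and 135 CPM in adequate libraries, and the log2 fold change was 0.90 (SE 0.454). In restricted 2, Col3a1 was at 79.6 CPM, lower than in any adequate library. Col5a2 had 86.2, 72.2 and 53.5 CPM in deficient libraries and 31.5, 46.2 and 36.1 CPM in adequate libraries. Its log2 fold change against adequate was 0.90 (SE 0.316, edgeR adjusted p = 0.220) in deficient, 0.80 (SE 0.315, edgeR adjusted p = 0.463) in restricted and 0.58 (SE 0.278) in supplemented libraries. Without restricted 3 the value for restricted libraries was 0.49. Its partner Col5a1, which with Col5a2 sets fibril diameter, averaged 126 ± 47.7 CPM in deficient and 99.9 ± 35.1 CPM in adequate libraries (SD, n = 3 each), within the spread of either. Col5a3, the third type V chain, averaged 36.2 ± 21.5 CPM in deficient and 36.5 ± 20.3 CPM in adequate libraries (SD, n = 3 each). Counted without overlap, 9 members were higher in all deficient than in all adequate libraries, where 7.91% of all genes were, and 4 of the 9 were fibrillar: Col1a1, Col1a2, Col3a1 and Col5a2. The same count was 7 members (8.37% of all genes) for restricted against adequate and 2, Col12a1 and Col6a3, for supplemented against adequate (2.14%). In the other direction, Col9a2 was lower in all restricted and in all supplemented than in all adequate libraries. Col20a1 was lower in all deficient than in all adequate libraries. The share of all genes that were lower without overlap is not given.

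**Figure D3:**
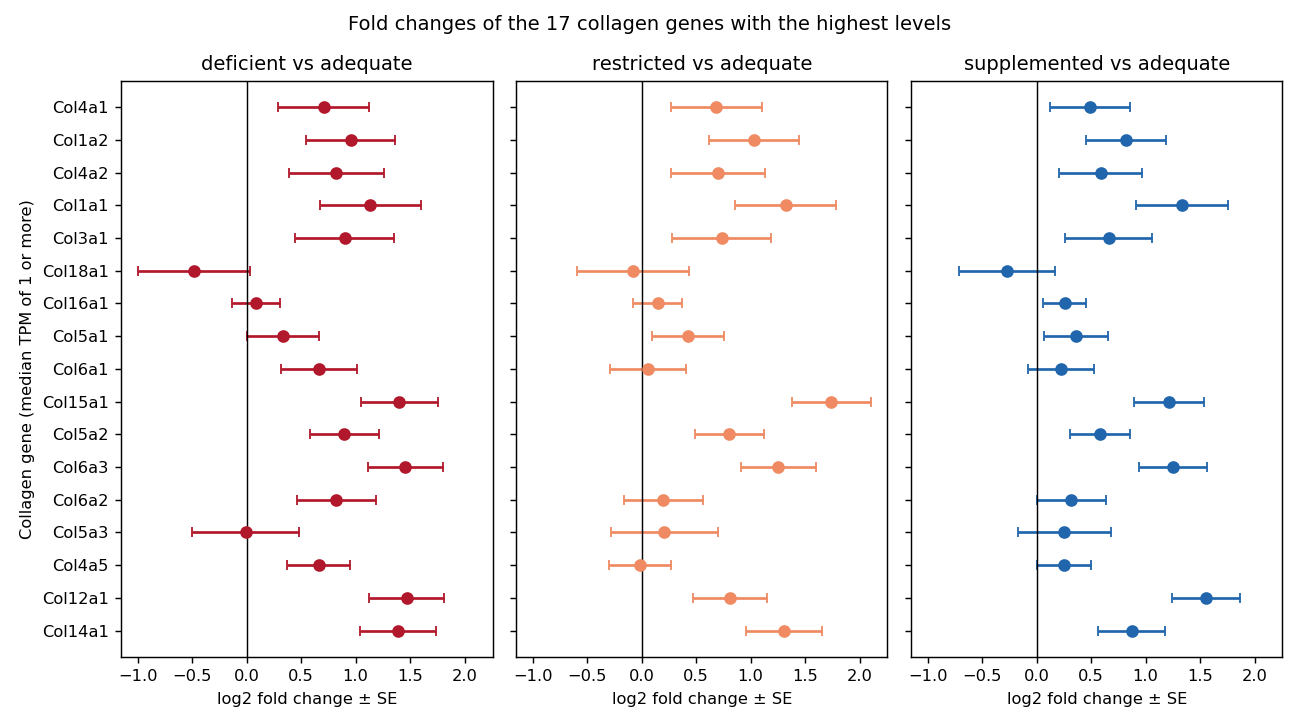
Log2 fold changes against adequate libraries (points) with their SE (bars) from the edgeR fit, for the 17 collagen genes with a median of 1 TPM or more, ordered from the highest level. Col6a3, Col15a1 and Col1a1 lie right of 1 in each comparison, Col12a1 does in deficient and supplemented libraries, Col14a1 in deficient and restricted libraries and Col1a2 in restricted libraries, and Col18a1 lies left of 0 in each.

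Col2a1, the fibrillar collagen of cartilage, ran the other way. So did the means of other members, such as Col11a1, Col11a2, Col9a1 and Col9a2. Their highest mean was in adequate libraries, at 3.83, 3.54, 7.83 and 0.870 CPM. None of them had p under 0.05 in the edgeR fit without a covariate. Col9a3 had its highest mean in supplemented libraries, at 1.44 CPM. Col2a1 had 1.77, 0.602 and 0.946 CPM in deficient libraries, 0.166, 0.555 and 1.17 CPM in restricted libraries and 10.8, 12.5 and 0.773 CPM in adequate libraries. Supplemented libraries ran from 0.274 to 1.3 CPM with a median of 0.939 CPM. Adequate 1 and adequate 2 were above all other libraries, while adequate 3 lay within the range of the other diets. The log2 fold change against adequate was -2.84 (SE 0.924, edgeR adjusted p = 0.194) in deficient, -3.66 (SE 0.967, edgeR adjusted p = 0.287) in restricted and -3.25 (SE 0.733, edgeR adjusted p = 0.248) in supplemented libraries. DESeq2 gave adjusted p = 0.0412, 0.0122 and 0.0113 for these comparisons. Col2a1 had the smallest unadjusted p of the family for any difference among the 4 diets (edgeR quasi-likelihood test over all genes, adjusted p = 0.373). The 8 cartilage markers summed to 13.4 to 23.6 CPM in deficient, 8.02 to 19.9 CPM in restricted, 45.9 to 57.0 CPM in adequate and 15.9 to 33.3 CPM in supplemented libraries. Most of the adequate sum was Hapln1, a link protein of cartilage and other matrices, at 42.0, 48.2 and 23.2 CPM. Of the other cartilage markers, Cnmd and Snorc were at 0 in every library, and Acan, Comp and Matn1 did not pass the low-count filter. Matn3, a matrilin of cartilage, had log2 fold changes of -1.37 (SE 0.498) in deficient and -1.46 (SE 0.500) in restricted against adequate libraries, and Sox9, a transcription factor also used outside cartilage, had 0.016 (SE 0.627) and -0.80 (SE 0.634). In supplemented against adequate libraries Matn3 had -0.67 (SE 0.414) and Sox9 -0.11 (SE 0.541). The part of cartilage RNA in the Col2a1 values was not tested.

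In the basement membrane class the common chains Col4a1 and Col4a2 moved together from library to library. The mouse genes lie head to head, and their promoter windows overlap. The windows, taken from RefSeq on build GRCm38.p6, reach from 250 bases before to 50 bases after each start. They lie at chr8:11312777-11313076 on the minus strand for Col4a1 and chr8:11312555-11312854 on the plus strand for Col4a2. Both are shown because this pair had the highest correlation of the 10 chain pairs examined below. Capitals mark the 78 bases, chr8:11312777-11312854, that both windows hold, read on opposite strands.
Col4a1: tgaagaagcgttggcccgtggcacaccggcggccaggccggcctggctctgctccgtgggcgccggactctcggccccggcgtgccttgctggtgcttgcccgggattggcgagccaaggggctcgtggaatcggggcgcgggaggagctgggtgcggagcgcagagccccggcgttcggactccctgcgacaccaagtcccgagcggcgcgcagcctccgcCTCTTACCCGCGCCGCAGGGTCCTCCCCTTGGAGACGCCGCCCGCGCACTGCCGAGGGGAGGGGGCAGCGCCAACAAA
Col4a2: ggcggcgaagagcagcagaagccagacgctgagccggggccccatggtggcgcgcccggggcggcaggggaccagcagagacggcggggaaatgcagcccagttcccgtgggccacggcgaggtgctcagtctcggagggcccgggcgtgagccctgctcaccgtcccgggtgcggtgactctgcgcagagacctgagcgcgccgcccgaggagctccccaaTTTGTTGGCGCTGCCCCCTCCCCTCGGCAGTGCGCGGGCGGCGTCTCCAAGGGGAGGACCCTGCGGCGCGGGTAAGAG
Both windows held the letters CCAAT, searched on both strands, as did 37.4% of all 32851 windows and 13 of the 38 windows (34.2%) found for 35 collagen genes. Both also held the GC box GGGCGG, present in 35.7% of all windows and in 23 of the 38 collagen windows (60.5%). Neither held TATAAA, present in 13.6% of all windows and in 5 collagen windows. A match is a description of letters and not a site.

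Col4a1 had 556, 512 and 655 CPM in deficient libraries, 567, 624 and 505 CPM in restricted libraries and 154, 524 and 379 CPM in adequate libraries. Supplemented libraries ran from 187 to 755 CPM with a median of 482 CPM. Col4a2 had 253, 228 and 373 CPM in deficient libraries, 273, 262 and 250.1 CPM in restricted libraries and 68.7, 240.4 and 174 CPM in adequate libraries. In supplemented libraries Col4a2 ran from 90.5 to 366 CPM with a median of 230.1 CPM. The lowest values of both genes were in adequate 1 and supplemented 5, and the groups otherwise overlapped except for Col4a2 in restricted against adequate. Log2 fold changes against adequate were 0.71 (SE 0.418) in deficient, 0.68 (SE 0.418) in restricted and 0.49 (SE 0.368) in supplemented libraries for Col4a1. For Col4a2 they were 0.82 (SE 0.433), 0.70 (SE 0.432) and 0.59 (SE 0.382), and none of these had p under 0.05.

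Over all 15 libraries and all diets, log2 CPM of Col4a1 and Col4a2 correlated with Pearson r = 0.99 (permutation p = 1e-05, the smallest that 100000 permutations can give, adjusted p = 3.3e-05 over 10 chain pairs) and Spearman rho = 0.96 (permutation p = 1e-05, adjusted p = 5e-05). Without adequate 1 and supplemented 5, the libraries farthest from the median, r was 0.94. Their TPM ratio, Col4a1 over Col4a2, stayed between 1.66 and 2.32 with a median of 2.02. Col1a1 with Col1a2, the chains of type I collagen, had r = 0.93 (permutation p = 1e-05, adjusted p = 3.3e-05) and rho = 0.90 (permutation p = 4e-05, adjusted p = 0.0001), and r = 0.86 without the 2 farthest libraries. Their TPM ratio, Col1a1 over Col1a2, had a median of 0.732 and ran from 0.507 in adequate 1 to 1.09 in supplemented 5. Col6a1 with Col6a2 had r = 0.96 (permutation p = 1e-05, adjusted p = 3.3e-05) and rho = 0.89 (permutation p = 2e-05, adjusted p = 6.7e-05), and r = 0.91 without the 2 farthest libraries. Both genes of a pair were read in the same libraries, which differ in depth and in tissue makeup, so these values describe chains that vary together and do not separate diet from other sources of spread.

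Other partners had an adjusted p above 0.05 over all 15 libraries. Col6a1 with Col6a3, chains of the same type VI molecule, had r = 0.46 (permutation p = 0.0861, adjusted p = 0.123) and rho = 0.27 (permutation p = 0.331, adjusted p = 0.414), and r = 0.20 without the 2 farthest libraries. Col5a1 with Col5a2 had r = 0.15 (permutation p = 0.590, adjusted p = 0.590) and rho = 0.075 (permutation p = 0.793, adjusted p = 0.862), with r = -0.25 without the 2 farthest libraries. Col8a1 with Col8a2, of the short-chain networks of vessel walls, had r = 0.27 (permutation p = 0.328, adjusted p = 0.365) and rho = 0.050 (permutation p = 0.862, adjusted p = 0.862), with r = -0.42 without the 2 farthest libraries. The cartilage chains Col9a1 with Col9a2 had r = 0.28 (permutation p = 0.317, adjusted p = 0.365) and rho = 0.36 (permutation p = 0.183, adjusted p = 0.262), with r = 0.38 without the 2 farthest libraries. Col11a1 with Col11a2 had r = 0.50 (permutation p = 0.0583, adjusted p = 0.0971) and rho = 0.43 (permutation p = 0.110, adjusted p = 0.183). Without the 2 farthest libraries r was 0.68 (permutation p = 0.0108, adjusted p = 0.018), near that of Col4a5 with Col4a6 below.

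**Figure D4:**
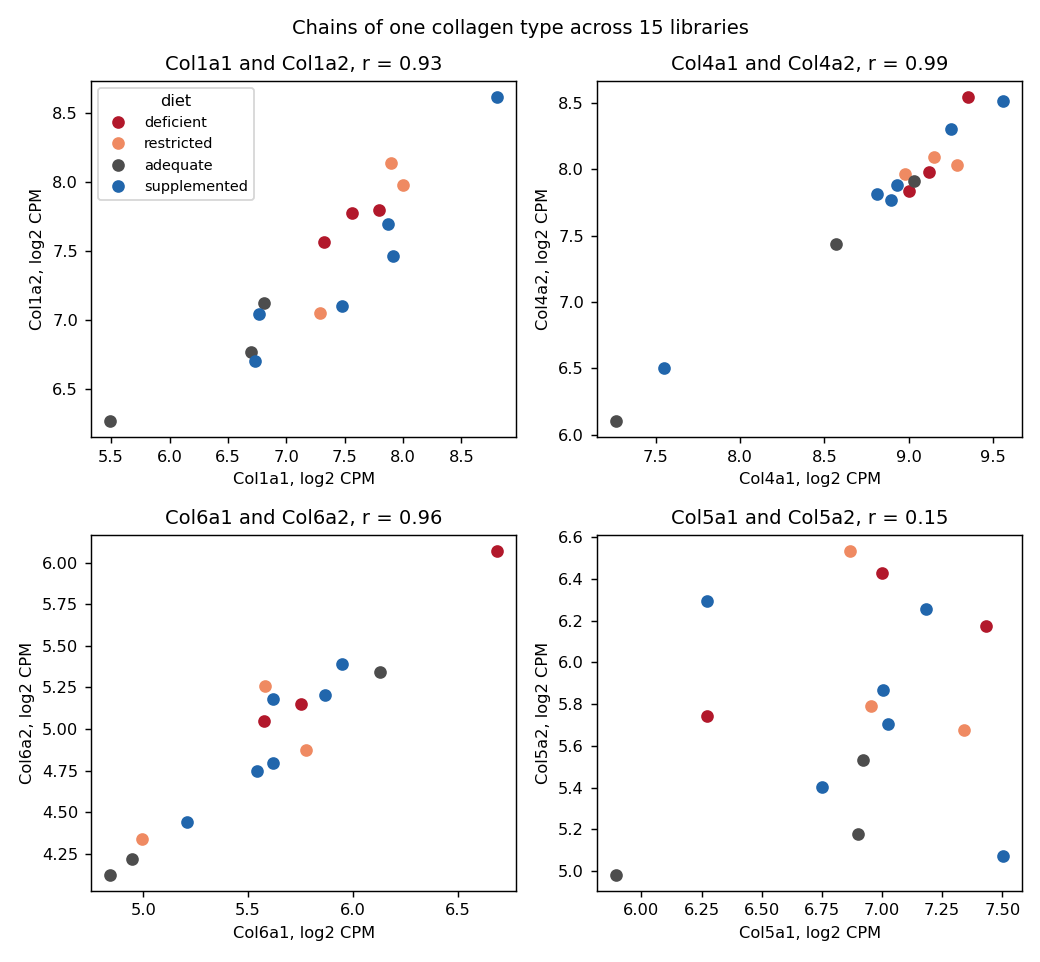
Log2 CPM of 4 pairs of collagen chains in 15 libraries (points, coloured by diet), with Pearson r in each title. Col1a1 with Col1a2, Col4a1 with Col4a2 and Col6a1 with Col6a2 fall along a line (r = 0.93, 0.99 and 0.96), and Col5a1 with Col5a2 does not (r = 0.15).

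The minor type IV chains Col4a3 and Col4a4, which with Col4a5 make the alveolar and glomerular network, were read beside alveolar markers. Col4a3 had 16.1, 4.67 and 125 CPM in deficient libraries, 5.58, 1.77 and 10.54 CPM in restricted libraries and 2.58, 19.9 and 4.68 CPM in adequate libraries. In supplemented libraries it ran from 0.0620 to 31.6 CPM with a median of 14.4 CPM. Deficient 3 was the highest and supplemented 5 the lowest library, and they also held the highest and lowest sums of the 10 alveolar type 1 markers. Those sums were 137 to 2979.5 CPM in deficient, 79.2 to 259 CPM in restricted, 145 to 464 CPM in adequate and 70.0 to 808 CPM in supplemented libraries, and no marker of that list was at 0 throughout. No correlation of either gene with these sums was computed. Col4a4 had 8.55, 6.57 and 61.3 CPM in deficient libraries, against 5.86, 8.37 and 4.91 CPM in adequate libraries. Col4a3 with Col4a4 had r = 0.92 (permutation p = 3e-05, adjusted p = 7.5e-05) and rho = 0.94 (permutation p = 1e-05, adjusted p = 5e-05), and r = 0.90 without the 2 farthest libraries, deficient 3 and supplemented 5. Col4a5 with Col4a6, an X-linked head-to-head pair, had r = 0.78 (permutation p = 0.00125, adjusted p = 0.0025) and rho = 0.68 (permutation p = 0.00652, adjusted p = 0.013). Without the 2 farthest libraries r was 0.68 (permutation p = 0.0107, adjusted p = 0.018).

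Between deficient and restricted libraries 5 members had p under 0.05, all higher in deficient libraries, where 7.44% of all genes had p under 0.05 and 5.16% were higher. They were Col4a3, Col4a4, Col4a5, Col4a6 and Col13a1, a transmembrane collagen. Their log2 fold changes were 3.03 (SE 1.34) for Col4a3, 2.23 (SE 0.830) for Col4a4, 0.68 (SE 0.287) for Col4a5, 2.82 (SE 1.27) for Col4a6 and 3.27 (SE 1.37) for Col13a1, with edgeR adjusted p of 0.649 or more. All 5 rested on deficient 3. Without that library the values were 0.81, 0.49, 0.30, 1.19 and 0.61, and no member had p under 0.05. With the mean of the alveolar type 1 and type 2 markers as a covariate, Col4a3 was at -0.13 and Col4a4 at 0.47, and Col13a1 was at 2.40 with p above 0.05. The members with p under 0.05 in that fit were Col10a1 and Col12a1, neither among the 5. In deficient against adequate libraries the log2 fold change was 1.99 (SE 0.821, edgeR adjusted p = 0.271) for Col4a4 and 0.66 (SE 0.287, edgeR adjusted p = 0.293) for Col4a5, and without deficient 3 these were 0.25 and 0.29.

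**Figure D5:**
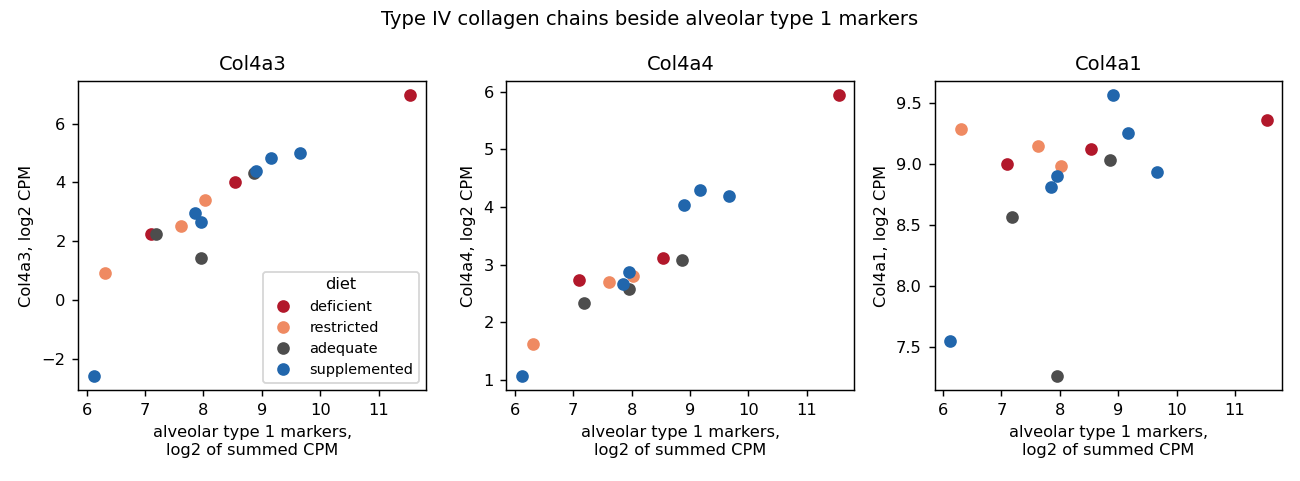
Log2 CPM of Col4a3, Col4a4 and Col4a1 (vertical axes) against log2 of the summed CPM of 10 alveolar type 1 markers (horizontal axes) in 15 libraries, coloured by diet. Col4a3 and Col4a4 run from supplemented 5 at the lower left to deficient 3 at the upper right. Col4a1 is also low in supplemented 5 and high in deficient 3, but is lowest in adequate 1 and highest in supplemented 3. No correlation with the markers was computed.

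Other members marked single libraries. Col13a1 had 1.69, 0.251 and 16.8 CPM in deficient libraries and at most 4.06 CPM in any other library. Col23a1, a further transmembrane collagen, had 2.33, 0.502 and 39.8 CPM in deficient libraries and at most 8.17 CPM elsewhere. In both, deficient 3 was the high library. Col8a1 was at 40.8 CPM in supplemented 5 and at 4.96 to 16.9 CPM in the other 14 libraries. Its partner Col8a2 was highest in deficient 3 at 5.67 CPM and supplemented 5 at 5.64 CPM. The fibrillar gene Col27a1 was at 8.58 CPM in deficient 3 and at 1.59 to 4.39 CPM elsewhere. The remaining low members, Col7a1, Col9a2, Col9a3, Col10a1, Col11a1, Col11a2, Col24a1, Col26a1 and Col28a1, were at most at 5.32 CPM in any library, and none had p under 0.05 in any comparison of the edgeR fit without a covariate. Between deficient and supplemented libraries no member had p under 0.05 in the edgeR test, where 5.45% of all genes did. DESeq2 had 3 members at that unadjusted level, for which the share of all genes is not given. Col12a1, Col6a3, Col14a1 and Col15a1 had means of 45.9 ± 19.7, 89.2 ± 27.5, 14.03 ± 2.59 and 41.5 ± 12.7 CPM in deficient libraries (SD, n = 3), against 48.5 ± 18.9, 77.6 ± 27.9, 9.80 ± 2.92 and 36.6 ± 14.4 CPM in supplemented libraries (SD, n = 6). The ranges of all 4 genes at 0% and at 300% methionine overlapped, and the log2 fold change furthest from 0 was that of Col14a1, at 0.52 (SE 0.290). The only member whose deficient libraries all lay above all supplemented libraries was Col17a1, the hemidesmosome collagen of epithelia, at 3.88, 4.11 and 3.31 CPM in deficient and 1.00 to 3.04 CPM in supplemented libraries, where 1.01% of all genes did so. Over the 4 diets 7 members had p under 0.05, against 9.47% of all genes: Col2a1, Col12a1, Col15a1, Col6a3, Col14a1, Col1a1 and Col4a4.

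Collagen chains need enzymes and chaperones before they are secreted, and 18 of 19 such genes were matched and tested. None was called by edgeR. At unadjusted p under 0.05, 4 were higher in deficient than in adequate libraries, 2 in restricted and 0 in supplemented, and none was lower, where 9.29%, 4.87% and 4.85% of all genes were higher. The median log2 fold changes of the 18 were -0.08, -0.04 and 0.05. P4ha1, a catalytic subunit of the prolyl 4-hydroxylase, had 156, 149 and 75.9 CPM in deficient libraries, 152, 154 and 114 CPM in restricted libraries and 96.8, 78.5 and 75.9 CPM in adequate libraries. Plod3, a lysyl hydroxylase, had log2 fold changes against adequate of 0.45 (SE 0.152) in deficient and 0.33 (SE 0.152) in restricted libraries. In supplemented against adequate libraries the values were 0.25 (SE 0.237) for P4ha1 and 0.24 (SE 0.133) for Plod3.

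Of 13 genes for propeptide removal and cross-linking, 11 were tested and none was called by edgeR. Adamts2, the protease that removes the amino propeptide of types I, II and III, had 19.5, 25.8 and 30.3 CPM in deficient libraries, 25.6, 21.1 and 20.7 CPM in restricted libraries and 6.93, 13.1 and 11.0 CPM in adequate libraries. Neither the deficient nor the restricted libraries overlapped the adequate group, as held for 7.91% and 8.37% of all genes. Supplemented libraries ran from 13.08 to 22.9 CPM, and the lowest lay within the adequate range. Against adequate, the log2 fold change was 1.28 (SE 0.274, edgeR adjusted p = 0.149) in deficient and 1.12 (SE 0.274, edgeR adjusted p = 0.247) in restricted libraries. In supplemented libraries it was 0.79 (SE 0.243, edgeR adjusted p = 0.350). Loxl1 and Loxl2, cross-linking oxidases, had log2 fold changes of 1.07 (SE 0.384) and -0.44 (SE 0.364) in deficient against adequate libraries, and of 0.34 (SE 0.382) and 0.80 (SE 0.365) in restricted against adequate libraries. In supplemented against adequate libraries they were 0.22 (SE 0.333) and 0.29 (SE 0.318). A list of 11 genes of collagen breakdown also held inhibitors of it, Timp1, Timp2 and Timp3. Of the 11, 1 was higher at p under 0.05 in deficient than in adequate libraries: Mrc2, the endocytic collagen receptor, at 13.1, 9.33 and 71.3 CPM in deficient and 3.91, 5.32 and 3.68 CPM in adequate libraries. That count is near the 9.29% of all genes that were higher there. The gelatinases Mmp2 and Mmp9 had log2 fold changes of 0.71 (SE 0.473) and 1.55 (SE 1.25) in that comparison. For Mrc2 the log2 fold change against adequate was 1.25 (SE 0.631) in restricted and 1.74 (SE 0.583) in supplemented libraries.

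Markers of cells that make collagen were read beside these values. The 10 pericyte and smooth muscle markers summed to 213 to 465 CPM in deficient, 226 to 328 CPM in restricted, 117 to 154 CPM in adequate and 201 to 767 CPM in supplemented libraries, so every library outside the adequate group lay above it. The 767 CPM was in supplemented 5, which held skeletal muscle markers at 1469 CPM, and the other supplemented libraries reached at most 305 CPM. The part of skeletal muscle in that sum was not tested. The 13 endothelial markers summed to 259.6 to 1785 CPM in deficient, 282 to 389 CPM in restricted, 157 to 221 CPM in adequate and 149.8 to 547 CPM in supplemented libraries. The 16 non-collagen fibroblast markers summed to 2004 to 2976 CPM in deficient, 1877 to 2054 CPM in restricted, 1468 to 2189 CPM in adequate and 1818 to 2738 CPM in supplemented libraries. None of these markers was at 0 throughout. At unadjusted p under 0.05, 6 of the 10 pericyte, 13 of the 13 endothelial and 8 of the 16 fibroblast markers were higher in deficient than in adequate libraries, where 9.29% of all genes were, and none was lower. In restricted libraries the counts were 5, 2 and 3 (4.87% of all genes) and in supplemented libraries 4, 5 and 5 (4.85%). The endothelial sum in deficient libraries was 339.9 CPM in deficient 1, 259.6 CPM in deficient 2 and 1785 CPM in deficient 3. Ddr2, a receptor tyrosine kinase for fibrillar collagen, was the only listed gene called by edgeR, at 130.8, 138 and 133 CPM in deficient and 65.1, 48.1 and 60.7 CPM in adequate libraries. There edgeR called 0.00625% of all genes. The lists were chosen with earlier results of these data known, so this call is not independent evidence. Against adequate, Ddr2 had log2 fold changes of 0.96 (SE 0.168, edgeR adjusted p = 0.114) in restricted and 0.91 (SE 0.150, edgeR adjusted p = 0.146) in supplemented libraries. The part of cell makeup in the collagen values was not tested. With the alveolar markers as a covariate, 9, 10 and 7 members had p under 0.05 in deficient, restricted and supplemented against adequate libraries, where 13%, 15.1% and 13.2% of all genes did.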

How the data were processed

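Total RNA of 15 lung metastasis samples was depleted of ribosomal RNA and made into strand-marked libraries, per the labels' protocols. The deposited values are RSEM expected counts and TPM per Ensembl gene. The submitters' processing notes name Bowtie2 2.2.9, RSEM 1.30, edgeR and build NCBIM37. Neither the annotation release nor the strand setting of the counting is stated in the sources read here. Reads of genes that overlap on opposite strands may therefore not be separated. TPM values, as the authors deposited them, were used only to compare genes within libraries, since summed collagen TPM was 34.5 in adequate 1 and 129 to 342 elsewhere.

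Expected counts were rounded and filtered with filterByExpr, which left 16001 genes, and scaled by TMM. The test was edgeR 4.0.16 (quasi-likelihood, R 4.3.3) over all 15 libraries with a mean per diet, which left 11 residual degrees of freedom, and Benjamini-Hochberg adjustment at 0.05 over all genes tested. The test was checked on simulated counts. Alternatives were DESeq2 1.42.0, limma-voom (limma 3.58.1), DESeq2 size factors, other low-count filters, fits of the compared groups alone, a covariate of alveolar markers, and leaving out libraries. Correlations used 100000 permutations. In each comparison up to 10 members with the smallest unadjusted p were named, with Col12a1, Col6a3, Col14a1 and Col15a1 always, and up to 4 genes per other list. The members and gene lists were chosen with earlier results of these data known. Members below the filter have counts only.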

Additional observations from a re-analysis of the deposited data

Results flagged for a closer look

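In the 6 supplemented libraries, the only group of more than 3, 38 collagen genes were checked for a library far from the others, and chance alone marks about 1 in 20. Supplemented 5 was the low library in 3 type IV genes. Col4a1 was at 186.9 CPM there and at 448.6 to 755.5 CPM in the other 5. Col4a2 was at 90.5 CPM, against 218.6 to 366.3 CPM in the others. Col4a3 was at 0.0620 CPM, against 6.17 to 31.6 CPM in the others. The same library held the highest Col1a1, at 447 CPM, and its skeletal muscle markers summed to 1469 CPM. Its endothelial markers summed to 149.8 CPM and its alveolar type 1 markers to 70.0 CPM, the lowest sums of all 15 libraries, and the part of these in the type IV values was not tested. Col11a2, a minor fibrillar chain of cartilage, was at 0.578 CPM in supplemented 3, against 2.03 to 3.73 CPM in the others.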

How the results depend on the processing

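No paired analysis was possible because the labels give no replicate numbers, and the numbers used here only name libraries and tie none of them to a mouse or batch. DESeq2 called 5, 4 and 4 members against adequate (deficient, restricted, supplemented) and 5 over the 4 diets, where edgeR called 0 in each. Counts of members at unadjusted p under 0.05 moved as follows. Where no share of all genes is given, a move of the members cannot be told apart from a move of all genes. Between deficient and adequate there were 6 with adequate 1, supplemented 5 and deficient 3 left out, where 12.7% of all genes had such a p. The median log2 fold change of the members was then 0.19. Between deficient and restricted there were 1 by limma-voom, 2 with the alveolar covariate, 0 with the 3 libraries left out and 3 with only these groups in the fit. Between deficient and supplemented there were 1 with DESeq2 size factors, 3 by DESeq2, 3 with no low-count filter and 1 with the covariate. Between restricted and supplemented there were 2 by limma-voom and 5 with the 3 libraries left out. Over the 4 diets DESeq2 gave 11. Leaving out each library in turn gave 6 to 16 members between deficient and adequate (6 without deficient 3, 7 without adequate 3), with a median log2 fold change of 0.22 to 0.89. It gave 5 to 9 between restricted and adequate (5 without adequate 1), 6 to 12 between supplemented and adequate (12 without adequate 2), 0 to 8 between deficient and restricted (0 without deficient 3, 8 without deficient 1), 0 to 5 between deficient and supplemented, 0 to 2 between restricted and supplemented and 5 to 12 over the 4 diets (12 without deficient 2).

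Values near 0 changed sign. In deficient against restricted, Col4a3 was at -0.13 and Col6a3 at -0.0030 with the covariate, and with the 3 libraries left out Col6a3 was at -0.037 and Col14a1 at -0.058. Leaving out single libraries gave -0.054 to 0.39 for Col6a3 and -0.074 to 0.16 for Col14a1. In deficient against supplemented, Col12a1 was at 0.055 with the covariate and Col6a3 at -0.14 with the 3 libraries left out. Single libraries gave -0.49 to 0.14 for Col12a1, -0.055 to 0.37 for Col6a3 and -0.017 to 0.41 for Col15a1. In restricted against supplemented, Col6a3 was at 0.050 by limma-voom and 0.11 with the covariate, and at -0.12 to 0.17 without single libraries. Against adequate, Col12a1, Col6a3, Col14a1 and Col15a1 kept a positive log2 fold change under every alternative run. Of the chain pairs, Col4a5 with Col4a6 had r = 0.62 with the 3 libraries left out (permutation p = 0.0312, adjusted p = 0.0624), and so no longer passed 0.05. Col5a1 with Col5a2 had -0.25 without the 2 farthest libraries and -0.30 without the 3, Col8a1 with Col8a2 had -0.42 and -0.15, and Col11a1 with Col11a2 had 0.68 without the 2 farthest. The causes were not tested. Genes of a few CPM, such as Col4a6 and Col2a1, rest on few reads. For Col2a1 even a log2 fold change of -3.25 (SE 0.733) in supplemented against adequate was not called (edgeR adjusted p = 0.248). Smaller differences in such genes may therefore have been missed. The 10 highest members by TPM were the same 10 by CPM per kilobase. That measure used the same effective lengths as TPM, so the match was nearly fixed in advance.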

Other observations

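The deposited transcript length that RSEM assigned to a gene varied between libraries for some collagens and not for others, which enters TPM but not CPM. For Col15a1 it ran from 1675 bases in supplemented 6 to 4936 bases in supplemented 5. For Col12a1 it ran from 6580 bases in adequate 1 to 10618 bases in adequate 2. For Col4a1 it was 6615 bases in 14 libraries and 6574 bases in restricted 1.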
